A study of Mus musculus with 72 samples.

Results

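Whole livers of 3 male mice under chronic circadian misalignment and of 3 control males, all collected at 08:00 clock time, were compared by RNA sequencing. These 6 libraries were taken by sex, treatment and clock time from a series of 72, in which 3 mice of each sex and treatment were sampled at each of 0, 4, 8, 12, 16 and 20 h. All mice were wild type C57bl6 animals of 8 to 16 weeks with free access to food and water. From the start of the protocol, misaligned and control mice alike received, in place of chow, a diet in which fat supplied 42% of the calories. The labels place the colony in a 12:12 light and dark cycle but do not describe the misalignment schedule, so 08:00 is the stated clock time only. A piece of liver was taken per mouse, and in such bulk samples fewer cells of a type cannot be told apart from less RNA per cell.

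The circadian clock of a liver cell is a transcriptional loop. CLOCK, or its relative NPAS2, pairs with BMAL1 (encoded by Arntl) on E-box sequences and activates the Per and Cry repressor genes, the nuclear receptor genes Nr1d1 and Nr1d2, and the PAR bZIP genes Dbp, Tef and Hlf. NR1D1 and NR1D2 repress Arntl, Npas2 and Clock through a separate element, while DBP, TEF and HLF act on D-boxes. In liver this loop times lipid, bile acid, haem and drug metabolism, and the time of feeding also sets many of these genes.

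The 6 libraries held 11627541 to 12037413 sense gene counts and 18170 to 19066 genes with at least 1 count, and 0 pairs of libraries were identical. Levels are given in CPM, gene counts scaled to a common library size with a correction for composition but not for transcript length, so they are compared between livers and not between genes. The summed level of 11 hepatocyte markers was 88990, 101800 and 75890 CPM in misaligned males and 89670, 111800 and 77930 CPM in control males. In the marker lists of other cell types 0 genes were called in edgeR, with 1 stellate cell gene at an unadjusted p under 0.05, and the pancreatic genes Cpa1, Ctrb1 and Prss2 were at 0 in all 6 libraries. Livers of the same replicate number moved together in some marker lists and not in others. Summed blood cell markers (12 genes), which did not, were 239, 303 and 175 CPM in misaligned replicates 1 to 3. In control replicates 1 to 3 they were 358, 207 and 214 CPM. Summed markers of cholangiocytes (8 genes) were 153, 105 and 328 CPM in misaligned replicates 1 to 3 and 138, 72.8 and 447 CPM in control replicates 1 to 3. Summed pericentral genes (12 genes) were 10220, 11400 and 6811 CPM in misaligned males and 10860, 19640 and 9806 CPM in control males, so control replicate 2 stood highest. The part of these differences in the results was not tested.

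In misaligned males 55 of 15066 tested genes changed at 08:00 by edgeR's quasi-likelihood test at an adjusted p under 0.05, or 0.365% of the genes tested. Of these, 32 rose (0.212%) and 23 fell (0.153%). For all 55 the 2 groups of livers did not overlap, and the same held for 15.7% of all tested genes. At an unadjusted p under 0.05 stood 938 genes with a higher and 796 with a lower level, 11.5% of those tested. The median log2 change over all tested genes was 0.002 and the median standard error 0.242. The count rested on single livers: it was 14 without misaligned replicate 1, 17 without misaligned replicate 2, 33 without misaligned replicate 3, 14 without control replicate 1, 5 without control replicate 2 and 70 without control replicate 3. Of the last, 38 were among the 55, and of the 33 without misaligned replicate 3, 28 were. All 55 kept their sign in these 6 fits, and 4 were called in each of them, namely Clock, Nmrk1, Marveld1 and Asb13, the last named after its values were seen. Acot3 and Insig2 lost their call only without control replicate 2 and Usp2 only without misaligned replicate 2, while the other called genes named below lost it in at least 2 of the 6 fits. No label says what a replicate number shares, and the pairing of livers by number was read from these same libraries. With the replicate number as a block, the fit of the 6 livers alone called 237 genes, 131 higher (0.982%) and 106 lower (0.795%), which is 1.78% of 13334 tested. It shared 42 calls with the 55. Without the block the 6 livers alone gave 37 calls (0.277%), 22 higher (0.165%) and 15 lower (0.112%). Of these 37, 18 were among the 55, and Asb13 was not called (adjusted p = 0.109, edgeR). DESeq2 on all libraries gave 141 (0.936%), 79 higher (0.524%) and 62 lower (0.412%).

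The transcription factors that drive the loop came first. Clock (ENSMUSG00000029238, GRCm38 chromosome 5, 76209868 to 76304792, minus strand), the partner of BMAL1, had 33.9, 31.7 and 24.4 CPM in misaligned males and 13.3, 13.8 and 14.3 CPM in control males. Every misaligned liver lay above every control liver. The rise of Clock was 1.12 ± 0.17 log2 (SE, n = 3 each) with an adjusted p of 0.000305 in edgeR, and the adjusted p ran from 0.000132 to 0.0115 as each library was left out. This SE and those below draw on the spread in all 72 libraries, not in these 6 alone. In edgeR's fit of all libraries, which called 0.365% of all tested genes, Clock was the 1 called gene of the 19 core clock genes. Limma-voom, with 53 calls over all tested genes, gave the same 1. The count depended on the fit, as did the share called over all tested genes. DESeq2 called 3 higher (Clock, Arntl and Npas2) and 3 lower (Per3, Tef and Ciart), against 0.524% and 0.412% of all tested genes. On the 6 livers alone edgeR called 3 higher and 2 lower, against 0.165% and 0.112%. With the replicate block it called 3 higher and 5 lower, against 0.982% and 0.795%.

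Arntl (ENSMUSG00000055116, chromosome 7, 113207465 to 113314126, plus strand) had 15.4, 12.9 and 7.91 CPM in misaligned livers and 1.31, 2.18 and 1.82 CPM in control livers. The groups were far apart, yet the difference of 2.76 ± 0.70 log2 missed the threshold (adjusted p = 0.0589, edgeR). With the replicate block on the 6 livers alone it was called (adjusted p = 0.00331). Npas2, the relative of Clock, stood at 4.51, 3.13 and 1.88 CPM in misaligned livers, against 0.246, 0 and 0.159 CPM in control livers. Its adjusted p was 0.0997 in the fit of all libraries and 0.0074 with the block on the 6 livers. The repressor gene Nfil3 had 35.1, 26.4 and 17.8 CPM in misaligned males and 10.3, 18.2 and 10.9 CPM in control males. The groups of Nfil3 overlap, with an adjusted p of 0.309 in edgeR.

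Among PAR bZIP genes and repressors of the loop, 0 were called in edgeR's fit of all libraries. Dbp had 19.5, 17.7 and 36.5 CPM in misaligned males and 117, 113 and 84.5 CPM in control males, a difference of -2.09 ± 0.75 log2 with an adjusted p of 0.236. Ciart, which encodes a repressor of CLOCK and BMAL1, had 5.93, 3.48 and 3.99 CPM in misaligned males and 20.6, 24.1 and 23.2 CPM in control males (-2.34 ± 0.65 log2, adjusted p = 0.0953). Both genes had groups without overlap. The period gene Per3 had 6.85, 10.3 and 18 CPM in misaligned livers and 27.7, 50 and 40.8 CPM in control livers (-1.74 ± 0.45 log2, adjusted p = 0.0606), and Tef had 70.7, 110 and 95.5 CPM in misaligned livers and 184, 235 and 191 CPM in control livers (-1.14 ± 0.30 log2, adjusted p = 0.0641). With the block on the 6 livers alone, Ciart, Per3, Tef and Per2 were among the genes called lower, with adjusted p from 0.00238 to 0.0212, while Dbp was not (adjusted p = 0.107). Per3 was also called when the block was added for these 6 livers within the fit of 72.

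In several other core clock genes the groups overlapped. The repressor gene Nr1d1 had 85.4, 65.4 and 61.1 CPM in misaligned livers and 70.2, 61.8 and 54.2 CPM in control livers. Cry1 had 7.93, 9.57 and 5.57 CPM in misaligned males and 6.64, 10.8 and 7.38 CPM in control males. Over the 19 core clock genes the misaligned livers lay all above the control livers for 3 and all below for 8, against 8.42% and 7.29% of all tested genes. At an unadjusted p under 0.05 there were 4 core clock genes with a higher and 6 with a lower level, against 6.23% and 5.28% of all tested genes. The test uses 1 estimate of spread per gene from all 24 groups, and the median SD of core clock genes was 0.325 log2 in misaligned males at 08:00 and 0.256 in control males at 08:00, in a range of 0.167 to 0.867 over the 24 groups. In misaligned males at the other clock times it was 0.625, 0.867, 0.692, 0.276 and 0.834 at 0, 4, 12, 16 and 20 h.

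**Figure D1:**
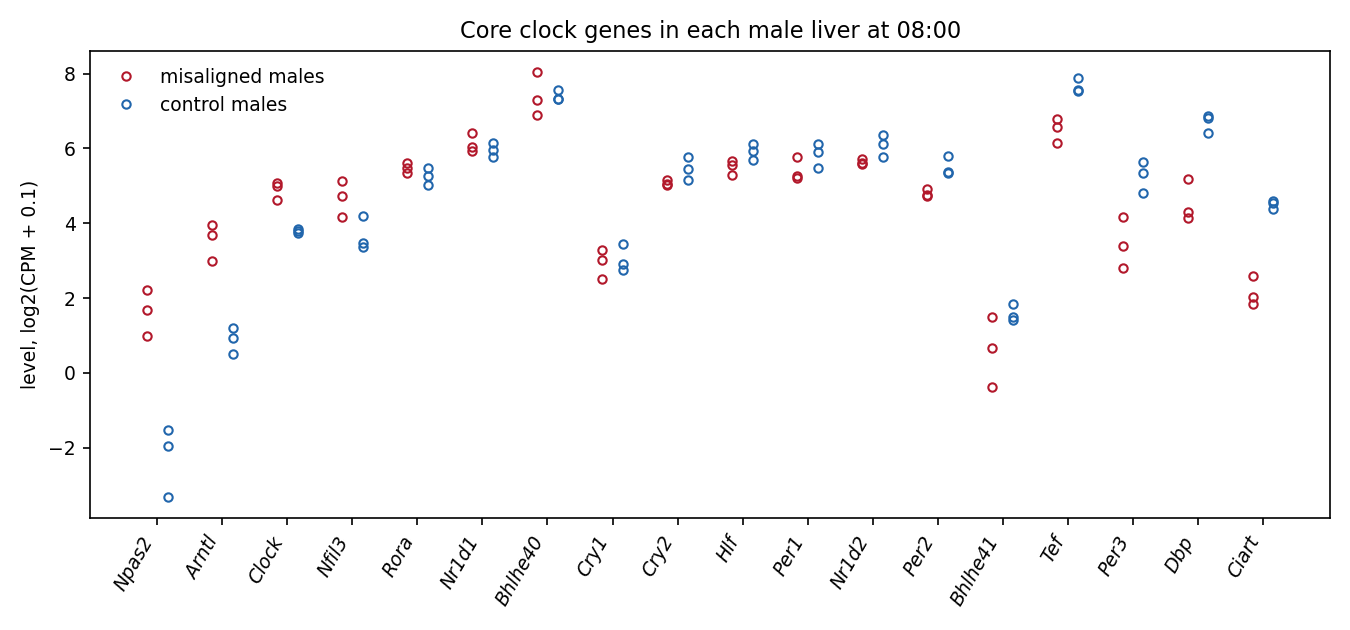
Level of 18 core clock genes in each male liver at 08:00, as log2 of CPM plus 0.1 on the y axis, with genes ordered from the largest positive to the largest negative log2 change. Red circles are 3 misaligned males and blue circles 3 control males. Npas2, Arntl and Clock have red circles above blue without overlap, and Tef, Per3, Dbp and Ciart have them below.

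The start regions of a few of these genes are printed because E-boxes and D-boxes are the sequences through which the loop acts. Each is the 250 bases before a RefSeq gene start on GRCm38.p6, read on the strand of the gene, with capitals marking matches on either strand to the E-box CACGTG or, in Per3, the D-box TTANGTAA. The Ciart window (3:95882229-95882478, minus strand) holds 3 E-boxes, and its last 23 bases lie in an exon of GENCODE vM21. The windows of Tef (15:81811164-81811413, plus strand) and of the called acyl-CoA thioesterase gene Acot4 (12:84038129-84038378, plus strand) hold 1 E-box each, and the Per3 window (4:151044666-151044915, minus strand) holds 2 D-boxes. Only windows with a match were chosen for printing. Those of Dbp, Nr1d1, Nr1d2, Hlf, Cry2, Arntl, Npas2 and Usp2 held neither motif, and an E-box also lay in a window of Cry1, Per1 and Bhlhe41.
Ciart: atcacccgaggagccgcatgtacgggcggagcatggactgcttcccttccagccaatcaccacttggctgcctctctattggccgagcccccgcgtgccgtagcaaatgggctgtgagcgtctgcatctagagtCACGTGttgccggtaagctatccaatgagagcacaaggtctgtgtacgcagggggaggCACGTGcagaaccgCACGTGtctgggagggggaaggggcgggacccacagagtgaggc
Tef: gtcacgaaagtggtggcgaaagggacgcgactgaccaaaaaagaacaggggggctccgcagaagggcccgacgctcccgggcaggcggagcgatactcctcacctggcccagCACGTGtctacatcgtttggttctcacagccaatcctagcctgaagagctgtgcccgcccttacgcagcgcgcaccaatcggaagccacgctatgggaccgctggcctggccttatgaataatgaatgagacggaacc
Acot4: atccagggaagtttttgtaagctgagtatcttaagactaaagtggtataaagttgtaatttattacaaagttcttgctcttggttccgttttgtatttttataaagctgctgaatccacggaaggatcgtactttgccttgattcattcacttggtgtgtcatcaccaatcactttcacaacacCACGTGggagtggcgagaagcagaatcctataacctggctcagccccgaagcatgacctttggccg
Per3: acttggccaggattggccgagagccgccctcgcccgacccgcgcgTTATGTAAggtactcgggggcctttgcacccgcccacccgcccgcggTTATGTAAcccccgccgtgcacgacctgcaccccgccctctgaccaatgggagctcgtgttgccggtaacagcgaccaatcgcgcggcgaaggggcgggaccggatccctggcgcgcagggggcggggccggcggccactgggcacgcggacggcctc
An E-box occurred in 9.71% of the 10725 tested genes with a window, a D-box in 1.81%. Of the called genes with a window, 3 of 16 that fell (Acot4, Lipe and Osbpl5) and 1 of 27 that rose (Slc16a1) held an E-box, and 0 held a D-box. A match is a run of letters and not a bound site.

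A reading of the whole core clock gave each liver a molecular time, found by regressing its 19 core clock genes on 24 h cosine curves of the control males. The misaligned livers read 2.16, 2.44 and 3.50 h and the control livers 7.48, 9.60 and 8.78 h, all taken at 8 h. Misaligned livers thus stood -5.30 ± 0.70 h from clock time and control livers 0.62 ± 1.07 h (SD, n = 3 each), with no overlap and no test. Relative amplitude was 0.925, 0.781 and 0.906 in misaligned livers and 0.897, 1.06 and 0.894 in control livers. At 08:00 the curves accounted for 0.486, 0.736 and 0.842 of the variance in misaligned livers. In control livers of 08:00 the share was higher, at 0.936, 0.954 and 0.964. At the other clock times the shares overlapped, from 0.617 to 0.931 in control males and from 0.52 to 0.96 in misaligned males. Control livers of those times stood -2.51 to 2.15 h from clock time. Each control liver was read against curves fitted without it but with the other control livers of its clock time. The effect of these livers on the control readings was not tested. At 04:00 the 3 misaligned males read 14.9, 4.99 and 17.2 h and at 12:00 they read 13.9, 6.16 and 6.94 h, so livers of 1 clock time could stand many hours apart. At 16:00 they read 5.91, 6.04 and 7.40 h, also close together.

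**Figure D2:**
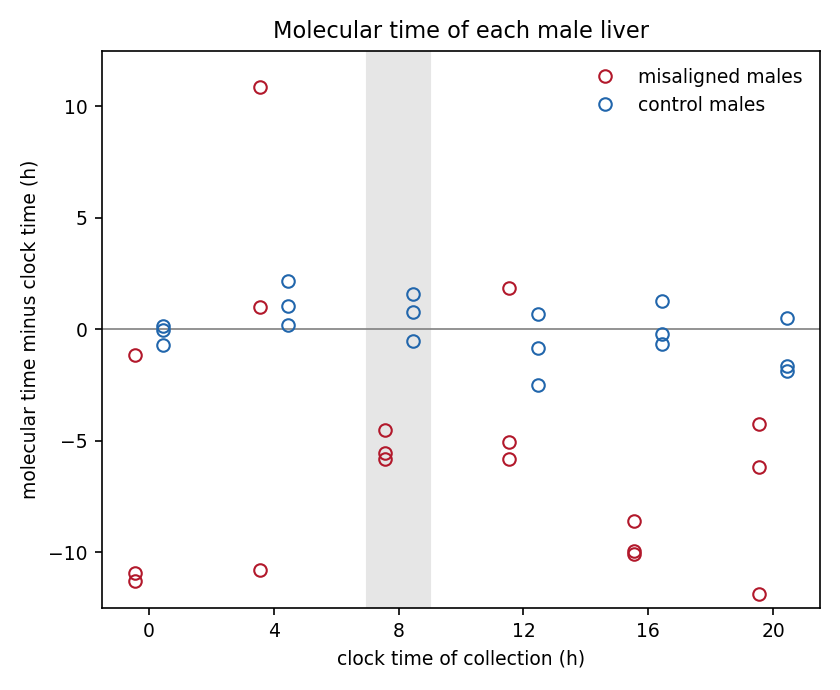
Molecular time minus clock time (hours, y axis) of each male liver against its clock time of collection (hours, x axis), for misaligned males in red and control males in blue, with 08:00 shaded. The 3 misaligned livers of 08:00 lie between -5.84 and -4.50 h, below the 3 control livers of 08:00, which lie between -0.516 and 1.60 h.

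Among genes known as outputs of the liver clock, 2 of 24 tested rose and 4 fell in edgeR's fit of all libraries. Over all tested genes the shares were 0.212% and 0.153%. In DESeq2 2 rose and 6 fell, against 0.524% and 0.412% of all tested genes. This list, like the others, was chosen with earlier results of these data known, so the counts are a description. Usp2 (ENSMUSG00000032010, chromosome 9, 44067021 to 44095627, plus strand), a deubiquitinase gene, had 8.52, 6.17 and 7 CPM in misaligned livers and 59.9, 68.6 and 63 CPM in control livers. The groups were tight and far apart, and the fall was -3.14 ± 0.60 log2 (adjusted p = 0.00514, edgeR), with 0.0658 when misaligned replicate 2 was left out. Por, whose product passes electrons to microsomal cytochromes P450, had 197, 159 and 154 CPM in misaligned livers and 532, 753 and 496 CPM in control livers. It fell by 1.80 on the log2 scale (SE 0.37, adjusted p = 0.0105). Of 28 xenobiotic receptors and cytochromes Por was the 1 called gene in edgeR's fit of all libraries, where 0.153% of all tested genes fell. DESeq2 called 3, all lower, against 0.412%. The 6 livers alone called 2 of 25 tested, both lower, without the block (against 0.112%) and with it (against 0.795%). Wee1, the kinase that holds back mitotic entry, had 6.93, 4.52 and 13.8 CPM in misaligned livers and 19.3, 25.5 and 19.8 CPM in control livers (-1.35 ± 0.30 log2, adjusted p = 0.02, and 0.189 with the block on the 6 livers). Lipe, which encodes hormone-sensitive lipase, had 14.5, 12.2 and 11.2 CPM in misaligned livers and 33.8, 24.9 and 30.2 CPM in control livers (-1.23 ± 0.28 log2, adjusted p = 0.0235).

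Chka, which encodes choline kinase, had 114, 92.4 and 69 CPM in misaligned livers and 21.9, 19.5 and 26.9 CPM in control livers. It rose by 2.01 ± 0.47 log2 (adjusted p = 0.0304, edgeR). In that fit 0 of the other 16 tested genes of choline and phosphatidylcholine synthesis were called, against 0.365% of all tested genes. Clpx, a subunit of a mitochondrial protease that also acts in haem synthesis, had 224, 233 and 127 CPM in misaligned livers and 55.7, 60.5 and 63.3 CPM in control livers (1.70 ± 0.32 log2, adjusted p = 0.00471). Alas1, the first enzyme of haem synthesis, had 403, 381 and 368 CPM in misaligned livers and 1136, 870 and 1025 CPM in control livers. Its groups did not overlap, but the adjusted p was 0.231 in the fit of all libraries and 0.00184 with the block on the 6 livers.

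Called genes sat at an extreme of the control day. In control males 17 of the 23 genes that fell had their highest mean at 08:00 and the other 6 at 12:00, while 17.4% of all tested genes were highest at 08:00. Of the 32 that rose, 23 had their lowest control mean at 08:00 and 9 at 12:00, while 17.7% of all tested genes were lowest at 08:00. The control livers of 08:00 set both the call and this position, so it is a description. In misaligned males at 08:00 the mean stayed inside the range of the 6 control means for 31 of the 32 that rose (96.9%) and 19 of the 23 that fell (82.6%), against 82.0% of all tested genes. Usp2 illustrates it, with 40.5, 30.3, 7.23, 35.9, 39.6 and 49.4 CPM over the misaligned day and 2.61, 24.2, 63.8, 55.1, 27.5 and 11.2 CPM over the control day, both from 0 to 20 h.

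**Figure D3:**
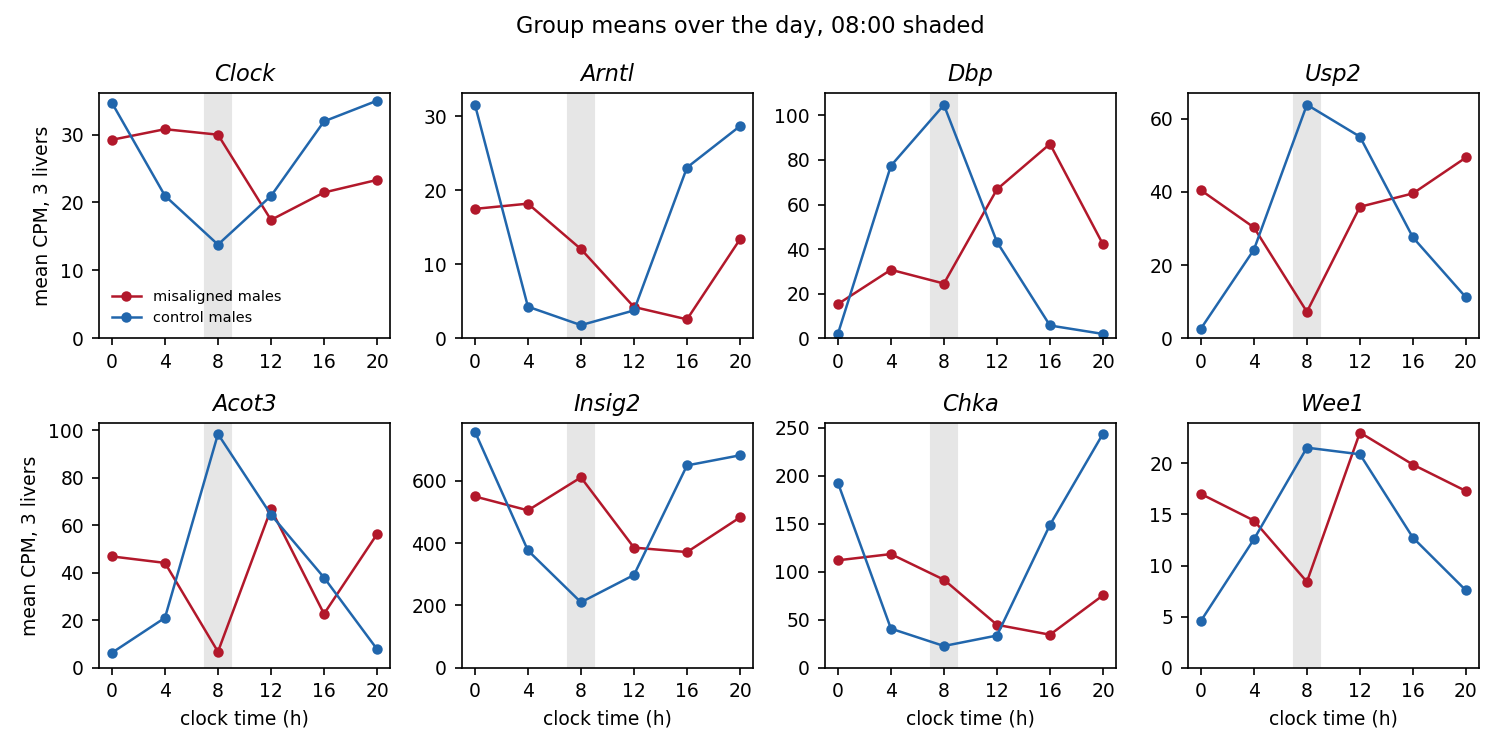
Mean CPM of 3 male livers (y axis) against clock time in hours (x axis) for 8 genes, misaligned males in red and control males in blue, with 08:00 shaded. For Clock, Arntl, Insig2 and Chka the control mean is lowest at 08:00, for Dbp, Usp2, Acot3 and Wee1 it is highest there, and the misaligned mean at 08:00 lies above the control mean in the first set and below it in the second.

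Targets of the fasting receptor PPAR alpha came next. Of 34 tested, 2 fell and 0 rose in edgeR's fit of all libraries, where 0.153% of all tested genes fell. In DESeq2 3 fell, against 0.412% of all tested genes. With the 6 livers alone in edgeR 0 were called, and 10 had an unadjusted p under 0.05, as did 1248 of all 13334 genes tested. In the fit of all libraries 29 of the 34 had a negative log2 change, as did 7470 of all 15066 tested genes. The median of the list was -0.291, against 0.002 over all genes. Acot3 (ENSMUSG00000021228, chromosome 12, 84052144 to 84060402, plus strand), a peroxisomal acyl-CoA thioesterase gene, had 6.01, 3.22 and 11.1 CPM in misaligned males and 48.9, 213 and 32.7 CPM in control males. Control replicate 2 was the highest by far, as it was for the pericentral genes. The fall was -3.85 ± 0.61 log2 (adjusted p = 0.00037, edgeR). Without control replicate 2 it was -2.58 with an adjusted p of 0.0602, and with the block on the 6 livers the adjusted p was 0.36. Its neighbour Acot4 had 56, 48.2 and 84.7 CPM in misaligned males and 119, 267 and 133 CPM in control males (-1.46 ± 0.29 log2, adjusted p = 0.00718, and 0.267 with the block). Acot1 to Acot4 are similar genes side by side, and their split is uncertain, although counts that include ambiguous reads gave -3.93 log2 for Acot3 and -1.46 for Acot4.

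Cpt1a, which admits long-chain fatty acids to mitochondria, had 453, 524 and 514 CPM in misaligned livers and 686, 878 and 820 CPM in control livers. The groups did not overlap, but the adjusted p was 0.0646 in the fit of all libraries and 0.0177 with the block on the 6 livers. In that fit 4 of the 34 PPAR alpha targets were called, all lower, against 0.795% of all tested genes called lower. Not all well-known targets separated the groups. Fgf21, a fasting hormone gene, had 10, 2.61 and 7.91 CPM in misaligned livers and 9.92, 5.82 and 14.8 CPM in control livers, which overlap.

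**Figure D4:**
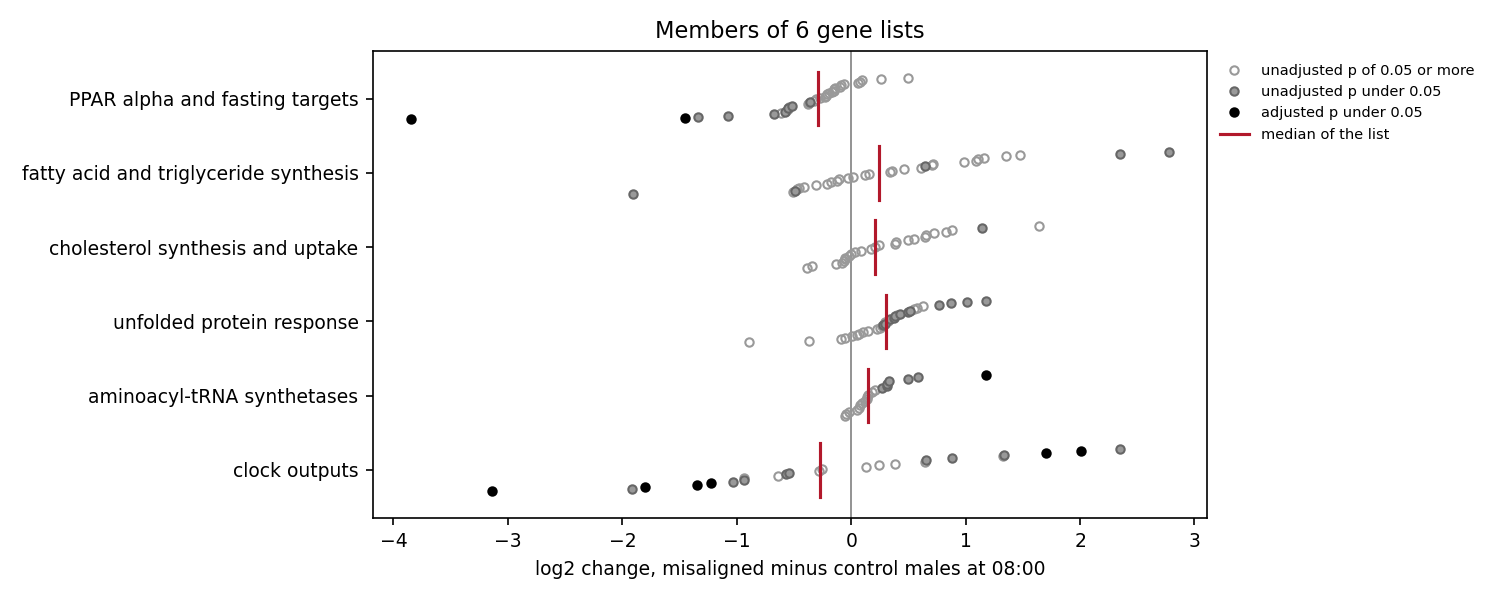
Log2 change of misaligned minus control males at 08:00 (x axis) for each tested member of 6 gene lists (rows). Black points passed an adjusted p of 0.05, grey points only an unadjusted one, open points neither, and the red bar is the median of the list. The PPAR alpha list has its median at -0.291 with 2 black points, both to the left.

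Of 30 genes of fatty acid and triglyceride synthesis 0 were called in edgeR's fit of all libraries. DESeq2 called 1, lower, against 0.412% of all tested genes. At an unadjusted p under 0.05 in edgeR stood 3 higher and 2 lower, against 6.23% and 5.28% of all tested genes. The summed level of the 30 genes was 61470, 55960 and 63930 CPM in misaligned males and 41640, 39620 and 37450 CPM in control males, most of it from Scd1. Scd1, the stearoyl-CoA desaturase gene, had 46804, 44157 and 48963 CPM in misaligned livers and 30593, 28819 and 26346 CPM in control livers. Acly, which makes cytosolic acetyl-CoA, had 710, 647 and 1081 CPM in misaligned livers and 258, 267 and 353 CPM in control livers (1.48 ± 0.83 log2, adjusted p = 0.482). Pnpla3, a lipid droplet gene, had 12.4, 11.2 and 17.2 CPM in misaligned livers and 2.21, 1.82 and 1.9 CPM in control livers (2.78 ± 1.17 log2, adjusted p = 0.335). None of these groups overlapped. With the block on the 6 livers alone, 8 were called higher (Pnpla3, Acly, Gpam, Acaca, Me1, Fasn, Scd1 and Acacb) and 1 lower (Cidec), with adjusted p from 0.00141 to 0.0368. That fit called 0.982% of all tested genes higher and 0.795% lower. Its block was read from these same libraries, so it is an alternative and not independent support. Without the block the 6 livers alone called 2 higher and 1 lower, against 0.165% and 0.112% of all tested genes. On all libraries limma-voom called 0. Misaligned livers lay all above the control livers for 8 of the 30 genes and all below for 5. Over all tested genes these shares were 8.42% and 7.29%.

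A sterol control gene, Insig2 (ENSMUSG00000003721, chromosome 1, 121304353 to 121332589, minus strand), encodes an anchor that keeps the sterol sensor SCAP in the endoplasmic reticulum. It had 711, 632 and 488 CPM in misaligned livers and 193, 176 and 261 CPM in control livers, without overlap. The rise was 1.54 ± 0.28 log2 (adjusted p = 0.00367, edgeR, and 0.0627 without control replicate 2). Of 25 tested genes of cholesterol synthesis and uptake 0 were called in edgeR's fit of all libraries. DESeq2 called 1, higher, against 0.524% of all tested genes. In edgeR's fit 1 of the 25 had an unadjusted p under 0.05, as did 11.5% of all tested genes. Hmgcs1, an early enzyme of cholesterol synthesis, had 225, 182 and 288 CPM in misaligned livers and 93.9, 90.9 and 129 CPM in control livers, with an adjusted p of 0.082, and of 0.00243 with the block on the 6 livers.

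Protein folding and translation genes were also read. Of 30 unfolded protein response genes 26 had a positive log2 change and 12 an unadjusted p under 0.05, all higher. In edgeR 0 were called, with or without the block. DESeq2 called 1, higher, against 0.524% of all tested genes. Over all tested genes, 7587 of 15066 had a positive change, and 6.23% had an unadjusted p under 0.05 with a higher level. The median of the list was 0.308, against 0.002 over all genes. Hspa5, the chaperone BiP, had 987, 924 and 600 CPM in misaligned livers and 442, 543 and 493 CPM in control livers, and its cofactor gene Hyou1 had 265, 290 and 142 CPM in misaligned livers and 95.6, 105 and 107 CPM in control livers. Misaligned replicate 3 was the lowest of its group for both. Tars, the threonyl-tRNA synthetase gene, was the 1 called gene of 20 tRNA synthetases in edgeR, where 0.212% of all tested genes rose. DESeq2 called 2 of the 20, both higher, against 0.524% of all tested genes. Tars had 151, 195 and 120 CPM in misaligned livers and 64.7, 67.7 and 73.9 CPM in control livers (1.18 ± 0.22 log2, adjusted p = 0.00514, edgeR). Its adjusted p ran from 0.00265 to 0.105 as each library was left out.

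Genes outside these groups gave the rest of the largest changes. Nmrk1 (ENSMUSG00000037847, chromosome 19, 18631950 to 18652428, plus strand), a nicotinamide riboside kinase of NAD synthesis, had 13.4, 16.6 and 17.5 CPM in misaligned livers and 40.8, 52.3 and 34.8 CPM in control livers. It fell by 1.43 on the log2 scale (SE 0.22, adjusted p = 0.000305, edgeR), and stayed called with each library left out, with 0.0158 as the highest adjusted p. Marveld1 had 28.6, 31.7 and 29.4 CPM in misaligned livers and 66.8, 57.1 and 59.2 CPM in control livers (-1.03 ± 0.18 log2, adjusted p = 0.00238). Serpina6, which encodes corticosteroid-binding globulin, had 141, 126 and 143 CPM in misaligned livers and 251, 583 and 212 CPM in control livers. Control replicate 2 was again highest. The fall of Serpina6 was -1.35 ± 0.29 log2 (adjusted p = 0.0143, and 0.267 with the block on the 6 livers), and without that liver it was -0.76 with an adjusted p of 0.318.

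Transporters of metals were among the genes that rose. Slc30a10, a manganese exporter gene, had 51.7, 66.5 and 46.8 CPM in misaligned livers and 12.6, 17.5 and 13.9 CPM in control livers (1.91 ± 0.42 log2, adjusted p = 0.0214). Slc41a2, a magnesium transporter gene, had 27.7, 36.4 and 40.8 CPM in misaligned livers and 12.3, 15 and 16.3 CPM in control livers (1.27 ± 0.28 log2, adjusted p = 0.0217). Neither group pair overlapped. Dhrs9, a retinol dehydrogenase gene of low level, showed the largest rise of the called genes named here, with 7.18, 2.52 and 7.83 CPM in misaligned livers and 0.574, 0.364 and 0.873 CPM in control livers (3.24 ± 0.74 log2, adjusted p = 0.0261, edgeR). It was not called in limma-voom (adjusted p = 0.139) and was called in 1 of the 6 edgeR fits that left out a library. Ddc, the aromatic amino acid decarboxylase gene, Cldn1, a tight junction gene, Pde9a, a cGMP phosphodiesterase gene, Dtx4 and Trim2 rose by 1.18 to 1.76 log2. Pcsk4, Osbpl5, Nrep and Ngef fell, by 1.07 to 2.19 on the log2 scale.

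**Figure D5:**
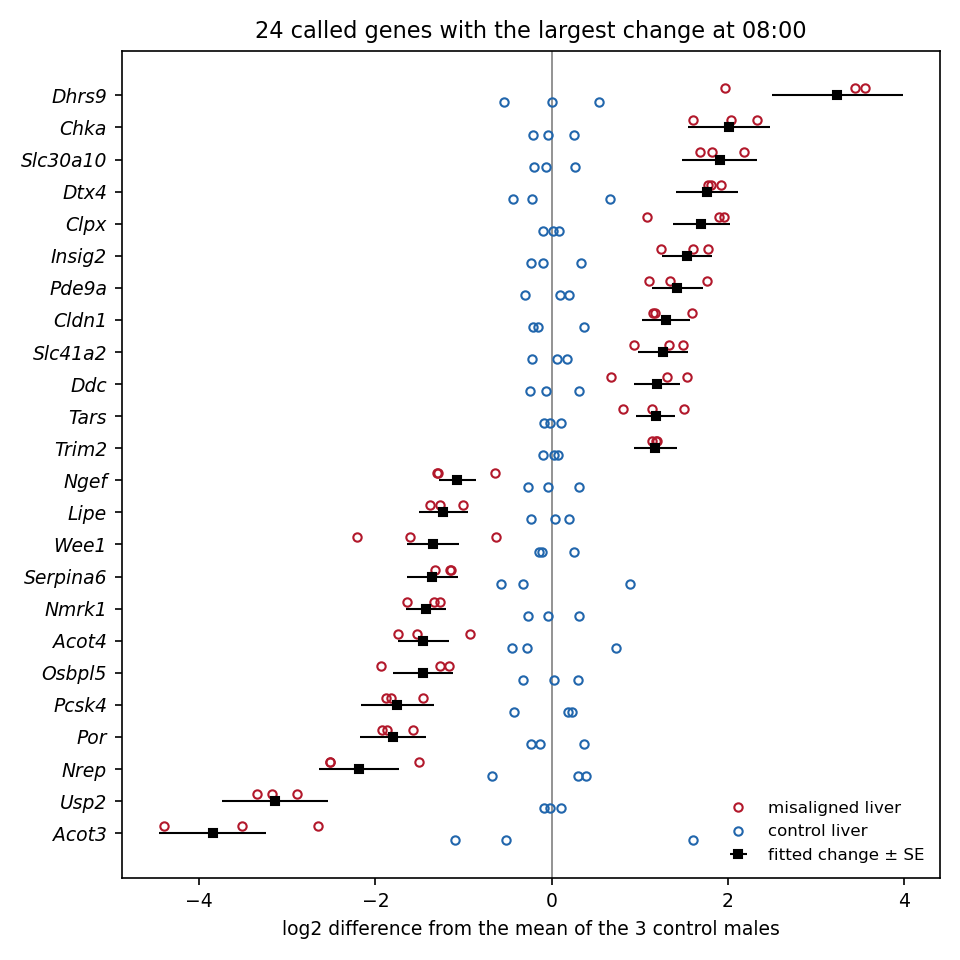
Log2 difference from the mean of the 3 control males (x axis) for the 24 called genes with the largest change at 08:00 (rows). Red circles are misaligned livers, blue circles control livers, and black squares with bars the fitted change with its SE. Acot3 has the lowest square and a control liver far to the right, and Dhrs9 has the highest square.

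Lists that the clock or feeding could also reach showed few calls. In each of the cold-inducible, heat shock, gluconeogenesis, glycolysis, amino acid, urea cycle, bile acid, glucocorticoid, immediate early, cell division, interferon, acute phase, ribosome biogenesis, autophagy and antioxidant lists 0 genes were called in edgeR. These lists held 6 to 39 tested genes, of which 0 to 6 had an unadjusted p under 0.05, against 11.5% of all tested genes. Some lists exceeded that share. At that p the bile acid list had 2 of 21 higher and 4 lower. Gluconeogenesis had 2 of 18 higher and 2 lower, and autophagy 2 of 20 higher and 2 lower. The cold-inducible, heat shock and urea cycle lists had 0. Over all tested genes 6.23% were higher and 5.28% lower. DESeq2 called 1 gene in each of the gluconeogenesis, amino acid, autophagy and antioxidant lists and 0 in the others. It called 0.936% of all tested genes. With the block on the 6 livers, 1 or 2 genes were called in the gluconeogenesis, glycolysis, amino acid, bile acid, immediate early, cell division, acute phase, autophagy and antioxidant lists, and 0 in the others. That fit called 1.78% of all tested genes. Cyp7a1, the rate-limiting enzyme of bile acid synthesis, had 13.2, 18 and 23.3 CPM in misaligned livers and 33, 218 and 15.9 CPM in control livers, so the groups overlapped and control replicate 2 stood alone. The male-biased genes had 0 calls among 29 in edgeR and DESeq2, with 4 at an unadjusted p under 0.05, against 11.5% of all tested genes. In that list Hsd3b5, a male-specific steroid enzyme gene, had 0.334, 183 and 0.151 CPM in misaligned livers and 3.12, 11.9 and 0.238 CPM in control livers.

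Sense intron counts of the same livers gave a second reading, since reads in introns come mostly from RNA not yet spliced. Of 11293 genes tested 2 were called, both lower (0.0177%). Ces1d, a carboxylesterase gene, had 726, 581 and 661 intron CPM in misaligned livers and 1705, 2400 and 1564 in control livers (-1.53 ± 0.28 log2, adjusted p = 0.0101, edgeR). Its gene counts were 814, 758 and 633 CPM in misaligned livers and 1108, 1713 and 1065 CPM in control livers (adjusted p = 0.176), and similar Ces1 genes make its counts uncertain. The other, 1600010M07Rik, chosen after its values were seen, is an antisense locus on chromosome 7 (109998376 to 110151202, minus strand) that spans Wee1, with 31, 8.3 and 46.2 intron CPM in misaligned livers and 168, 180 and 116 in control livers. Its gene counts were near 0, with means of 0.274 CPM in misaligned and 0.312 CPM in control livers (-0.17 ± 0.85 log2, adjusted p = 0.961, edgeR). Ces1d and this locus lost the call in some fits that left out a library, with 0 called without misaligned replicate 1, misaligned replicate 2 or control replicate 2, 1 called without misaligned replicate 3 and 5 without control replicate 3.

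Of the 52 genes called in gene counts that had tested introns, 51 changed with the same sign in introns. In introns 30 of the 52 had an unadjusted p under 0.05 (edgeR), as did 804 of all 11293 genes tested. Trim2 was the exception in sign, with -0.59 ± 0.45 log2 in introns and 1.18 ± 0.24 log2 in gene counts. Both readings come from the same livers, so the match is not independent support. Clock kept its sign, but its estimated change was smaller in introns. Its introns had 28.7, 21.4 and 15.4 intron CPM in misaligned livers and 24.9, 21.3 and 16.5 in control livers, a change of 0.06 ± 0.47 log2 beside the 1.12 ± 0.17 log2 of its gene counts. The groups of intron values overlapped, and the difference between the readouts was not tested. For Usp2 the introns had 13.8, 16.6 and 13.3 intron CPM in misaligned livers and 56.9, 48.8 and 65.1 in control livers (-1.96 ± 0.68 log2, adjusted p = 0.466). Those groups did not overlap.

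The same contrast in females called 0 genes in edgeR at 08:00, with 605 (4.02%) at an unadjusted p under 0.05. The change differed between males and females for 2 of 15066 genes (0.0133%), Nmrk1 and Marveld1, both more negative in males. In females Nmrk1 had 50.1, 51.7 and 53.7 CPM in misaligned livers and 47.4, 40.2 and 46.1 CPM in control livers, and the male change minus the female change was -1.64 ± 0.31 log2 (adjusted p = 0.0151). Marveld1 had 64.6, 62.3 and 66.3 CPM in misaligned females and 50.4, 48 and 50.8 CPM in control females, where all misaligned livers lay above, and the difference was -1.40 ± 0.26 log2 (adjusted p = 0.0151). Both calls were lost without female misaligned replicate 3, female control replicate 2 or 3, male misaligned replicate 1 or 3, or male control replicate 1, and that of Nmrk1 also without male control replicate 2, with adjusted p up to 0.172. For Clock the female change was 0.14 ± 0.17 log2, and the difference between the sexes was 0.97 log2 with an adjusted p of 0.221.

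Against the mean change of males at the other 5 clock times, the change at 08:00 differed for 296 genes (1.96%), 152 more positive (1.01%) and 144 more negative (0.956%). Acot3 stood out with a difference of -5.06 ± 0.67 log2 (adjusted p = 6.33e-06, edgeR). Its means ran 46.9, 44.1, 6.77, 66.7, 22.7 and 56.2 CPM over the misaligned day and 6.33, 21, 98.3, 64.4, 38 and 7.85 CPM over the control day, from 0 to 20 h. Usp2 had -4.40 ± 0.66 log2, Wee1 -2.15 ± 0.33, Acot4 -2.07 ± 0.32, Nmrk1 -1.88 ± 0.24 and Marveld1 -1.35 ± 0.20, while Clock had 1.34 ± 0.19 and the translation initiation factor gene Eif1a 0.95 ± 0.15. All 8 stayed past the threshold when each 08:00 male library was left out, with adjusted p of at most 0.00337 in edgeR. They were named for the smallest p of this same contrast, so this is a description. Libraries of the other clock times were not left out. The count of 296 became 123 without control replicate 1, 129 without control replicate 2, 477 without control replicate 3, 104 without misaligned replicate 2 and 173 without misaligned replicate 3.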

How the data were processed

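Per the labels, poly(A) RNA of whole liver was sequenced as stranded paired-end libraries with reads of 150 bp, and the submitters' processing notes name STAR 2.6.0c and GRCm38. The deposited tables hold read counts per gene or intron, sense to the gene. The version for reads assigned to 1 feature was used, and the version with ambiguous reads was an alternative. Columns with no sample numbered 0. Counts of 72 libraries were fitted in edgeR 4.0.16 (R 4.3.3) by a robust quasi-likelihood model after filterByExpr and TMM, with 24 group means and 48 residual degrees of freedom, 2-sided, adjusted by Benjamini and Hochberg over all genes tested at 0.05. Each SE is the absolute log2 change divided by the square root of the F value of this model. The model was tested on simulated data. Intron counts were summed per gene. Alternatives used limma 3.58.1 and DESeq2 1.42.0. Deviations of same-numbered male livers at 08:00 correlated at 0.262, 0.406 and 0.365, each over 0.1, so the numbers were taken to pair these livers. No label says what a number shares. The pairing was read from the same libraries, so the blocked fits are alternatives and not independent support. In males at 16:00 the correlations were 0.43, -0.0943 and 0.452. The p-values measure spread between the mice sampled. The members and the 35 gene lists were chosen with earlier results of these data known. Genes were named as the core clock, the 12 called genes with the largest change in each direction at a mean of at least 2 CPM, up to 4 per list by p, and the 8 smallest p for each difference between contrasts. Other list members are given as values. Gene positions are from GENCODE vM21 and promoters from RefSeq (GRCm38.p6), where 43 of the 55 called genes matched. Figures used Python 3.11.15 and matplotlib 3.10.9. Results for some genes are not reported here.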

Additional observations from a re-analysis of the deposited data

Results flagged for a closer look

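The changes below differed between groups of mice by a test of the difference itself in edgeR. The male change at 08:00 was more negative than the female change by 1.64 log2 for Nmrk1 (-1.64) and by 1.40 log2 for Marveld1 (-1.40). Against the mean male change at the other clock times, the difference was 1.34 log2 for Clock, -5.06 for Acot3, -4.40 for Usp2, -2.07 for Acot4, -1.88 for Nmrk1, -2.15 for Wee1, -1.35 for Marveld1 and 0.95 for Eif1a. Each group held 3 livers, too few for a search for outlying samples.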

How the results depend on the processing

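The 55 calls of the 08:00 comparison became 29 with no filter on low counts, 88 at a mean of at least 5 CPM, 141 in DESeq2, 9 with the male libraries alone, 237 with the replicate block on the 6 libraries alone, and 5 to 70 as each replicate was left out. They were 53 to 64 with RLE size factors, total counts, MAX counts and limma-voom, and 58 with the replicate block in all 72. The 6 libraries alone gave 37, of which 18 were among the 55. The block for the 6 libraries within the fit of 72, chosen after seeing the data, gave 57. The 2 genes that differed between the sexes became 4 with total counts, 16 in DESeq2 and 0 to 3 with a replicate left out. The 296 genes that differed from other clock times became 169 with no filter, 514 in DESeq2, 125 with the male libraries alone and 104 to 477 with a replicate left out. Numbers did not pair the livers of the other groups, and the replicate block gave no count outside 1.5 times the main one for these 2 comparisons. The 2 intron calls became 79 with no filter and 0 to 5 with a replicate left out. Molecular times moved by less than the spread between livers under each alternative tried. Signs reversed as a replicate was left out for Cry1 (-0.29 to 0.13), Bhlhe40 (-0.30 to 0.30) and Hsd3b5 (-4.34 to 5.19 log2), 0 of which were called. The causes were not tested. With 3 livers a group and a median standard error of 0.242 log2, small changes were below reach.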
